A study of Mus musculus with 6 samples.

Results

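Immediate early genes are switched on within minutes of a signal at the cell surface or of a physical stress, without the need for new protein synthesis. The 10 genes examined here, *Fos*, *Fosb*, *Jun*, *Junb*, *Egr1*, *Egr2*, *Ier2*, *Ier3*, *Dusp1* and *Atf3*, were chosen by symbol in the authors' annotated table, and all 10 were among the 15903 genes tested. They were measured by RNA-sequencing in bone-marrow-derived macrophages (BMDMs), which are grown from marrow with the growth factor M-CSF. The marrow came from 3 *Cx3cr1*GFP mice on a C57BL/6J background, whose *Cx3cr1* locus carries a GFP sequence. Cells of every mouse were either left unstimulated (control, n = 3) or given 62 mM excess NaCl for 24 h (NaCl, n = 3). All 6 cultures were grown in RPMI with serum and M-CSF, and RNA was isolated only from cells that still adhered, which were lifted with EDTA. Age and sex of the mice are not given in the sources used here, no library of an osmolarity control such as mannitol was analysed here, and 24 h is the only time point.

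FOS and JUN proteins pair through leucine zippers to form AP-1, a transcription factor that binds DNA as a dimer, and ATF3 belongs to the same group of zipper proteins. EGR1 and EGR2 are zinc finger factors, and in macrophages EGR2 is known from M-CSF-driven and alternatively activated cells. These genes are induced through MAP kinases, which act on the serum response factor SRF with its ELK partners and on CREB, and the phosphatase DUSP1 switches the MAP kinases p38 and JNK off again. Their transcripts are short-lived, so a level at a single time reflects recent transcription and decay.

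The libraries held from 4088065 (NaCl replicate 3) to 20123570 (control replicate 3) counts on genes, and the smallest count of any of the 10 genes was 10, for *Fosb* in NaCl replicate 1. Levels are given as CPM, the usual per-library scaling of counts, with library sizes adjusted by TMM. All 6 macrophage markers on a fixed list were measured, and their summed level was from 14548 to 15937 CPM in control and from 23032 to 30577 CPM in NaCl, where *Lyz2* (adjusted p = 0.0424 in edgeR) and, in a fit with a replicate block for the mouse, *Csf1r* (adjusted p = 0.000298) rose. *Lyz2* alone went from a mean of 9817 to 19148 CPM, and the other 4 macrophage markers did not pass in either fit, with log2 fold changes of -0.20 (*Adgre1*), -0.07 (*Cd68*), -0.06 (*Fcgr1*) and 0.07 (*Itgam*). With the block 2 of the 6 macrophage markers were called higher, where 4.6% of all genes tested were, and 1 without it, where 0.478% were. The 10 neutrophil markers summed to between 249 and 542 CPM in control and between 271 and 392 CPM in NaCl. Of these, 2 (*Ngp* and *Mpo*) fell with the block, where 4.3% of all genes tested did. The 6 dendritic cell markers summed to at most 4.53 CPM in any library. Of the 9 B, T and NK cell markers 2 had a total count of at least 10, of the 8 erythroid and megakaryocyte markers 3, of the 4 mast cell and basophil markers 3 and of the 8 stromal and endothelial markers 5. *Pax5*, *Cd3e* and *Ncr1* had no count in any library. The part of these cells in the results below was not tested, and in bulk RNA fewer cells of a type and less RNA per cell cannot be told apart.

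After 24 h of excess NaCl, the 10 genes did not move as 1 group. *Fos* and *Junb* were higher in all 3 NaCl libraries than in any control library, *Egr1* was lower in all 3, and the other 7 overlapped between the groups. With a replicate block for the mouse, edgeR called *Fos* and *Junb* higher, to 1.95-fold and 1.34-fold of control, and *Egr1* lower, to 0.559-fold. Without the block none (0) of the 10 genes passed the threshold of 0.05 on the adjusted p in edgeR's quasi-likelihood test, whereas 4 (*Fos*, *Junb* and *Dusp1* higher, *Egr1* lower) had an unadjusted p under 0.05, and DESeq2 called *Egr1* lower and none higher. Of all genes tested, edgeR called 0.478% higher and 0.176% lower without the block, and 4.6% higher and 4.3% lower with it. An unadjusted p under 0.05 was reached by 6.63% of all genes upwards and 6.01% downwards, and DESeq2 called 1.54% higher and 0.975% lower. All 3 NaCl libraries lay above all 3 control libraries for 8.92% of the genes tested and below them for 10.1%, beside 2 and 1 of the 10. The median log2 fold change of the 10 genes was 0.37, beside -0.01 over all genes tested. The study's methods name a comparison of treated with control samples and no further term, and the fit without the block is the main one. Adjusted p-values of both edgeR fits are over the 15903 genes. Those of DESeq2 are over the genes that its own filter on the mean count kept, so they are not over the same set as in edgeR. Those of fits that left out a library or a mouse are over the genes that then passed the filter.

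**Figure D1:**
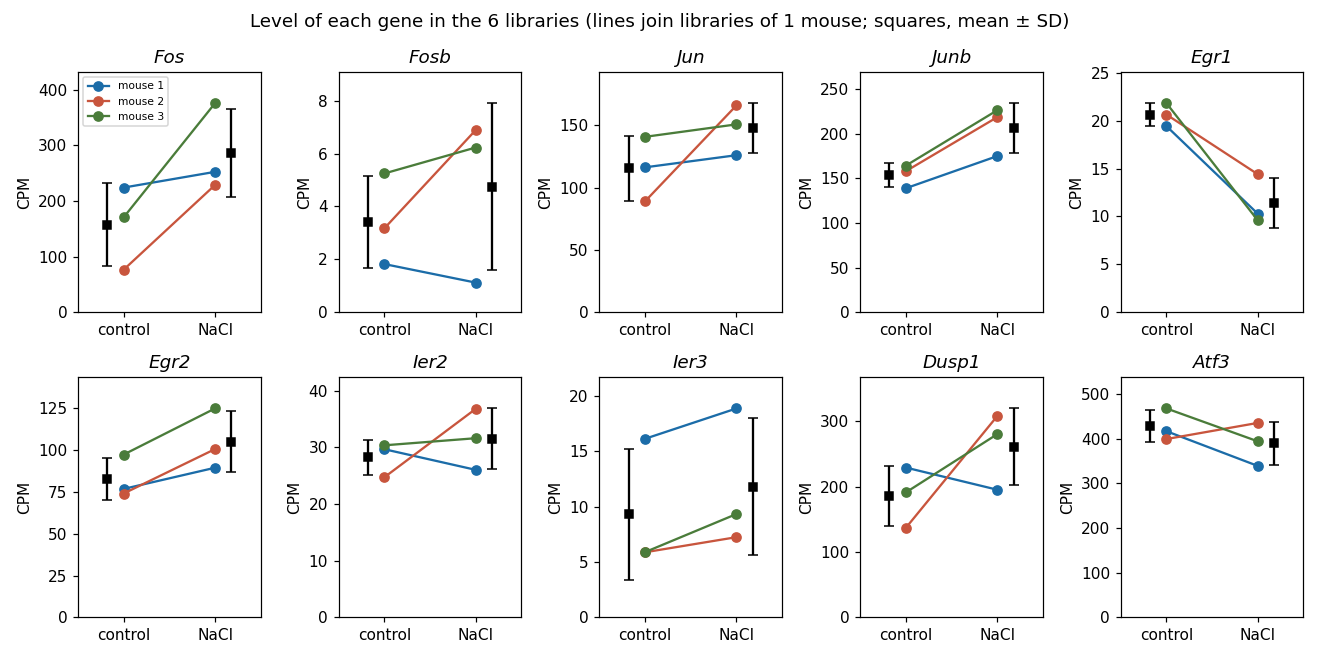
CPM (y axis, from 0) of each of the 10 genes in control and NaCl libraries, where a line joins the libraries of 1 mouse and squares with bars give the mean ± SD of 3 libraries. *Egr1* was lower in NaCl in 3 of 3 mice, *Fos* and *Junb* were higher in 3 of 3, and *Fosb*, *Ier2* and *Dusp1* went down in mouse 1 and up in mice 2 and 3.

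The FOS genes encode the AP-1 partners that must pair with a JUN protein. *Fos* (ENSMUSG00000021250.14, chromosome 12) was at 224, 76.5 and 171 CPM in control replicates 1, 2 and 3, and at 253, 229 and 376 CPM in NaCl replicates 1, 2 and 3. Control replicate 2 was far below the other controls, and the lowest NaCl library was only just above the highest control library. The means were 157 ± 74.8 and 286 ± 79.1 CPM (SD, n = 3 each), a log2 fold change of 0.86 ± 0.34 (SE) that did not pass in edgeR (adjusted p = 0.334). The blocked edgeR fit gave 0.96 ± 0.17 (SE, 95% interval 0.62 to 1.30, adjusted p = 0.000298 in edgeR). DESeq2 with the same block gave 0.98 ± 0.41 (SE) and an adjusted p of 0.144. The log2 ratios within mice 1, 2 and 3 were 0.17, 1.58 and 1.14, and those of mice 1 and 2 lay outside the edgeR interval. Leaving out 1 mouse from the blocked edgeR fit moved the log2 fold change of *Fos* between 0.66 (without mouse 2) and 1.37 (without mouse 1), and it stayed past the threshold in 3 of 3 such fits. These fits have 1 residual degree of freedom per gene and share mice with each other, so they are not separate support for the call.

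*Fosb* (ENSMUSG00000003545.4, chromosome 7), a relative that shares the DNA-binding and zipper regions of *Fos*, was the scarcest of the 10. Its level was 1.82, 3.17 and 5.25 CPM in control and 1.12, 6.89 and 6.23 CPM in NaCl, so the groups overlapped on both sides. Counting error alone gave a 95% Poisson interval of 0.536 to 2.06 CPM around its 10 counts in NaCl replicate 1, and of 5.43 to 8.62 CPM around its 76 counts in NaCl replicate 2, so these replicates of 1 group differed by more than counting error. The log2 fold change was 0.39 with a 95% interval from -0.87 to 1.65 (adjusted p = 0.827 in edgeR and 0.374 with the block), and it turned to -0.16 without NaCl replicate 2.

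The JUN genes encode the partners that can pair with each other or with FOS proteins, JUN as a strong activator and JUNB as a weaker one. *Junb* (ENSMUSG00000052837.8, chromosome 8) was at 139, 158 and 164 CPM in control and at 175, 219 and 226 CPM in NaCl. Every NaCl library lay above every control library, and the mice kept the same order in both groups. The means of 154 ± 13.2 and 207 ± 27.7 CPM differed by 0.43 ± 0.14 (SE) on the log2 scale, which did not pass in edgeR (adjusted p = 0.257). In the blocked edgeR fit *Junb* rose by 0.42 on the log2 scale (95% interval 0.19 to 0.66, adjusted p = 0.0187), and DESeq2 with the block also called it (adjusted p = 0.0148). The blocked adjusted p was 0.141 without mouse 1, 0.00131 without mouse 2 and 0.0933 without mouse 3, so the call was lost without mouse 1 or mouse 3 and kept without mouse 2. An opposite-strand overlap with *Prdx2* covers 7.52% of the exonic bases of *Junb*, and the counting did not use strand.

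*Jun* (ENSMUSG00000052684.5, chromosome 4) was at 116, 89.0 and 141 CPM in control and at 126, 166 and 151 CPM in NaCl. NaCl replicate 1 lay within the range of the controls. The means were 115 ± 25.9 and 148 ± 20.2 CPM, and the 95% interval of the log2 fold change ran from -0.05 to 0.76 (adjusted p = 0.46 in edgeR, and 0.0905 with the block). Without mouse 2 the blocked log2 fold change was 0.12 (adjusted p = 0.602), against 0.52 (adjusted p = 0.0222) without mouse 3. The antisense transcript *Junos* overlaps 7.28% of its exonic bases.

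*Atf3* (ENSMUSG00000026628.14, chromosome 1), a stress-induced repressor of inflammatory genes, was at 416, 399 and 467 CPM in control and at 339, 435 and 394 CPM in NaCl. The groups overlapped, with the lowest library in NaCl and the highest in control. The log2 fold change was -0.14 with a 95% interval from -0.44 to 0.17 (adjusted p = 0.734 in edgeR and 0.557 with the block), which leaves room for a fold of 0.735 to 1.13.

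The EGR genes encode zinc finger factors that bind the same GC-rich motif. *Egr1* (ENSMUSG00000038418.8, chromosome 18), the growth factor-induced activator, was at 19.4, 20.7 and 21.8 CPM in control and at 10.3, 14.4 and 9.58 CPM in NaCl. The controls differed little from each other and the highest NaCl library was well below the lowest control. The means of 20.6 ± 1.20 and 11.4 ± 2.61 CPM differed by -0.83 ± 0.19 (SE) on the log2 scale, with an adjusted p of 0.0971 in edgeR, 0.00124 in its blocked fit and 0.0157 in DESeq2. In the blocked fits that left out 1 mouse the log2 fold change was from -1.03 to -0.70, and it passed in 3 of 3. *Egr1* therefore had the lowest adjusted p of the 10 genes without the block, and *Fos* with it.

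*Egr2* (ENSMUSG00000037868.16, chromosome 10) was at 76.8, 74.0 and 97.3 CPM in control and at 89.4, 101 and 125 CPM in NaCl. NaCl replicate 1 was below control replicate 3, although *Egr2* was higher in NaCl within each of the 3 mice. The means were 82.7 ± 12.7 and 105 ± 18.1 CPM, with a log2 fold change of 0.34 (95% interval -0.03 to 0.71, adjusted p = 0.437 in edgeR and 0.0685 with the block). Per kb of exon, *Egr2* stood at 5.21, 4.73 and 5.88 times the level of *Egr1* in the control libraries and at 11.5, 9.20 and 17.2 times in the NaCl libraries. This ratio is free of library scaling, and its lowest NaCl value was above its highest control value. It was chosen after the values of both genes were seen and has no test. Another EGR gene, *Egr3* (singled out after its values were seen), did not pass, with 3.67 ± 1.33 CPM in control and 2.02 ± 0.978 CPM in NaCl (adjusted p = 0.336 in edgeR and 0.0578 with the block), and *Egr4* had 1 count over all 6 libraries.

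*Dusp1* (ENSMUSG00000024190.8, chromosome 17), the phosphatase that ends MAP kinase signals, was at 229, 137 and 191 CPM in control and at 195, 308 and 280.3 CPM in NaCl. Mouse 1 had less of it in NaCl, whereas mice 2 and 3 had more. The means were 186 ± 46.5 and 261 ± 58.6 CPM, a log2 fold change of 0.49 (95% interval 0.01 to 0.98, adjusted p = 0.391 in edgeR and 0.0532 with the block). Without mouse 1 the blocked log2 fold change was 0.87 (adjusted p = 0.000706), and without mouse 2 it was 0.17 (adjusted p = 0.354).

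*Ier2* (ENSMUSG00000053560.6, chromosome 8) encodes a small nuclear protein induced with *Fos*. Its level was 29.7, 24.7 and 30.4 CPM in control and 26.0, 36.8 and 31.6 CPM in NaCl, with overlap between the groups. The log2 fold change of 0.16 had a 95% interval from -0.22 to 0.54 (adjusted p = 0.756 in edgeR and 0.593 with the block). *Ier3* (ENSMUSG00000003541.7, chromosome 17), a survival gene induced by NF-kB, was at 16.1, 5.89 and 5.90 CPM in control and at 18.9, 7.25 and 9.34 CPM in NaCl. Both libraries of mouse 1 stood above all 4 of the other mice. The log2 fold change of *Ier3* was 0.39 ± 0.45 (SE; adjusted p = 0.772 in edgeR and 0.229 with the block). Without NaCl replicate 1 it turned to -0.16, in a fit that kept control replicate 1, the highest control. Within mice 1, 2 and 3 the log2 ratio of *Ier3* was 0.22, 0.29 and 0.65. Blocked fits that left out 1 mouse gave from 0.27 to 0.48.

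**Figure D2:**
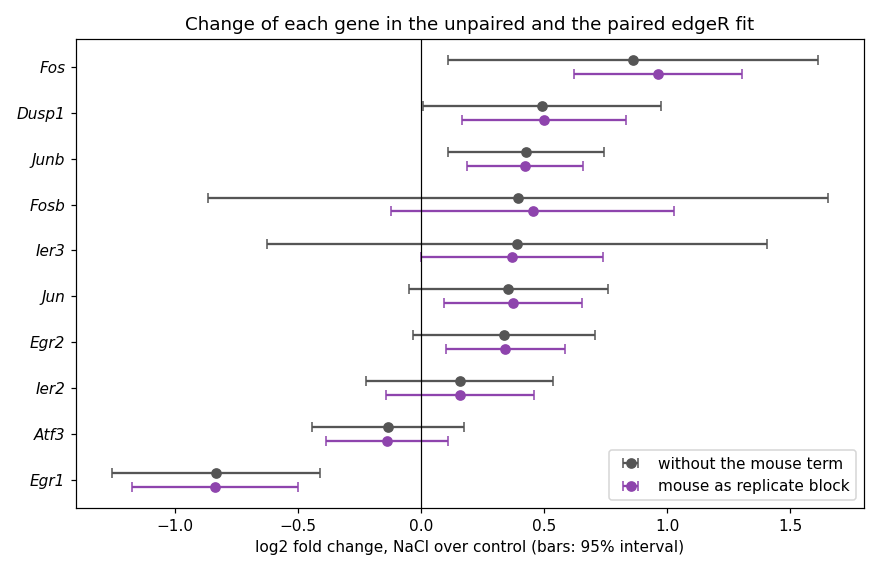
Log2 fold change of NaCl over control (x axis) for each of the 10 genes with its 95% interval, from the edgeR fit without the mouse (grey) and with a replicate block for the mouse (purple). The blocked intervals were narrower for all 10 genes, most for *Ier3*, *Fos* and *Fosb*, and the intervals of *Egr1* lay wholly below 0 in both fits.

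The change within a mouse varied between the 3 mice. In mouse 1, 5 of the 10 genes were higher in NaCl and 5 were lower, with a median log2 ratio of -0.04. In mouse 2, 9 were higher, with a median log2 ratio of 0.52 and a highest value of 1.58 for *Fos*. In mouse 3, 8 were higher, with a median of 0.30. *Egr1* was the lowest of the 10 in each mouse, at -0.91, -0.51 and -1.17. Over all genes tested the share higher in NaCl was 47.7%, 51.0% and 45.2% in mice 1, 2 and 3. Higher in 3 of 3 mice were 5 of the 10 genes (*Fos*, *Jun*, *Junb*, *Egr2* and *Ier3*), where 20.1% of all genes tested were, and lower in 3 of 3 was *Egr1*, where 23.6% were. The 10 genes share the same 6 libraries and are not replicates of each other.

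**Figure D3:**
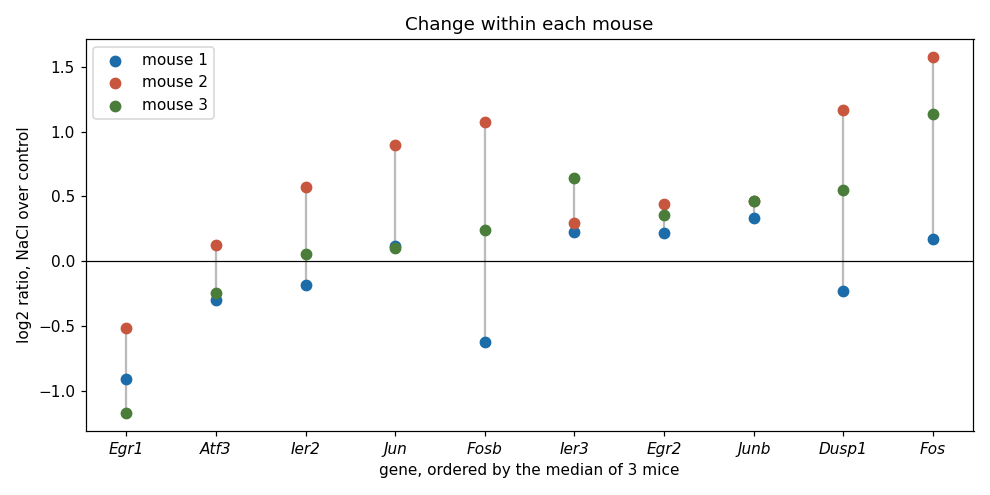
Log2 ratio of NaCl over control within mouse 1, 2 and 3 (y axis) for each of the 10 genes, ordered along the x axis by the median of the 3 mice. The 3 mice lay close together for *Junb* and *Egr2*, and spread from -0.62 to 1.08 for *Fosb* and from -0.23 to 1.17 for *Dusp1*.

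The levels of some of these genes also differed between mice in both groups. In a test of the mouse term of the blocked edgeR fit, 3 of the 10 genes passed, where 8.89% of all genes tested did: *Ier3* (adjusted p = 3.2e-05), *Fosb* (adjusted p = 0.00162) and *Fos* (adjusted p = 0.00519). *Ier3* was highest in mouse 1, in which *Fosb* was lowest, while *Fos* was lowest in mouse 2 in both groups. The remaining 7 had adjusted p-values from 0.115 (*Egr2*) to 0.915 (*Dusp1*) in that test. After all libraries were thinned to the smallest total, 2 of the 10 passed. Which date, culture or cage the mice differed in is not given in the sources used here.

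Divided by the kb of exon of each gene in GENCODE M21, levels could be compared between genes. In control BMDMs *Atf3* was the most abundant of the 10 at 199 ± 16.5 CPM per kb (SD, n = 3), and its lowest control library was above the highest of any other of the 10. *Junb* (66.8 ± 5.74), *Fos* (66.8 ± 31.8), *Dusp1* (56.1 ± 14.0), *Jun* (36.2 ± 8.12) and *Egr2* (24.3 ± 3.74 CPM per kb) followed, and each neighbour in that order overlapped with the next. *Ier2* (18.6 ± 2.02), *Ier3* (8.23 ± 5.23), *Egr1* (4.60 ± 0.267) and *Fosb* (0.547 ± 0.276 CPM per kb) came last, each without overlap with the next. In NaCl the order was the same except that *Fos*, at 122 ± 33.6 CPM per kb, stood above *Junb*, which had from 76.1 to 98.4 CPM per kb, and overlapped with *Atf3* at 181 ± 22.4 CPM per kb.

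The make-up of the AP-1 transcripts was taken as the share of each of 12 genes (the FOS and JUN families, *Atf3*, the BATF genes and *Jdp2*) in their summed CPM per kb, a quantity that does not depend on library scaling. *Atf3* held 45.5%, 53.1% and 48.5% in the control libraries and 37.3%, 42.4% and 34.8% in the NaCl libraries, so that every NaCl share was below every control share. The 12 shares of a library add up to a fixed whole, so a higher share of 1 gene lowers those of others. The level of *Atf3* itself overlapped between the groups (log2 fold change -0.14). *Fos* held 22.5%, 9.31% and 16.2% in control and 25.5%, 20.4% and 30.5% in NaCl, with overlap between the groups. Within each of the 3 mice the share of *Fos* was higher in NaCl. *Junb* held from 14.2% to 19.7% in control and from 18.1% to 19.9% in NaCl. The differences of the means were -10.9 percentage points for *Atf3*, 9.45 for *Fos* and -0.35 for *Fosl2*. With 3 against 3 libraries the smallest p of a two-sided exact permutation test is 0.1, which *Atf3* and *Fosl2* reached, and *Fos* had p = 0.2 (all 12 adjusted p-values were at least 0.514). This test did not pair the libraries by mouse. The FOS family together made up from 11.3% to 24.4% of the AP-1 transcripts in control and from 22.0% to 32.1% in NaCl, and the JUN family from 27.9% to 32.7% and from 31.3% to 34.0%. Genes on the opposite strand overlap 52.6% of the exonic bases of *Jund* and 57.2% of those of *Fosl1*. Their full exon lengths were used, and the effect of these overlaps on their levels per kb and shares was not tested.

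**Figure D4:**
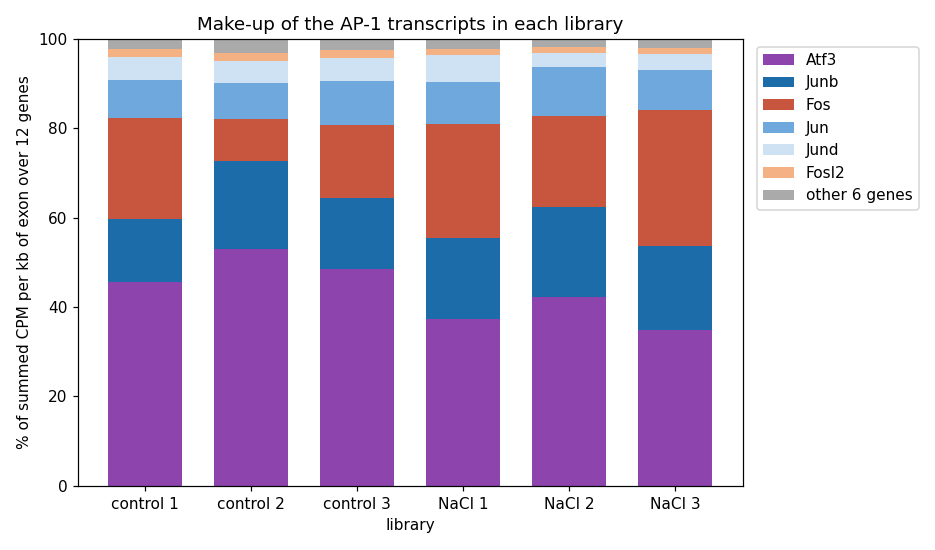
Share of each AP-1 gene in the summed CPM per kb of 12 genes (y axis, %) in each of the 6 libraries (x axis), stacked from *Atf3* at the base. *Atf3* was from 45.5% to 53.1% in control and from 34.8% to 42.4% in NaCl, and the part of *Fos* was smallest, 9.31%, in control replicate 2.

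The DNA before the start of the genes was read from RefSeq promoters (build GRCm38.p6, 250 bases before to 50 after a transcript start), which were found for 8 of the 10 genes, all but *Egr1* and *Ier2*. *Egr2* has 5 promoters in this table and the other 7 genes have 1 each, and a gene is counted if any of its promoters holds a motif, whereas the background is the share of single promoters. The motif TGACG, the core that CREB and ATF factors recognise, was searched for on both strands, and 6 of these 8 genes held it (*Fos*, *Fosb*, *Junb*, *Egr2*, *Dusp1* and *Atf3*), where 20.9% of 32544 promoters did. The full palindrome TGACGTCA, which contains TGACG on each strand, was found in *Dusp1*, and in 1.8% of all promoters. A CArG box, the site of SRF, was found in 4 of the 5 promoters of *Egr2* (1.64% of all promoters). Promoters 3, 4 and 5 of *Egr2* overlap each other and hold the same box, so these are not separate sites. An NF-kB site was found in the promoters of *Fos*, *Fosb* and *Ier3* (4.53%). The AP-1 site TGACTCA was in none (0) of the 8, against 5.19% of all promoters. The TonE element bound by the osmotic regulator NFAT5 was in 1 of the 5 promoters of *Egr2* and in none of the other 7 genes, against 4.97% of all promoters. These are matches of letters in a short window and not sites shown to be bound. The 200 bases before the transcript start are shown for *Fos* and *Junb*, which passed the threshold upwards with the block, and for *Dusp1*, which holds the palindrome, each 5′ to 3′ on its own strand with every match to TGACG or its reverse complement in capitals.
Fos, chr12:85473690-85473889, plus strand: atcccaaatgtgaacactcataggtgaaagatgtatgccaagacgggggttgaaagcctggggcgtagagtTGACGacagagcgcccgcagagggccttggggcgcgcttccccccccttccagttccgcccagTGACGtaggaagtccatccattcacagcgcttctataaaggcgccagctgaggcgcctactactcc
Junb, chr8:84978749-84978948, minus strand: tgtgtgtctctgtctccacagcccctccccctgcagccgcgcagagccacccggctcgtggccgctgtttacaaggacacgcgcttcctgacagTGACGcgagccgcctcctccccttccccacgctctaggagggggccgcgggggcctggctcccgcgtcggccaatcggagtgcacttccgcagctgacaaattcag
Dusp1, chr17:26508473-26508672, minus strand: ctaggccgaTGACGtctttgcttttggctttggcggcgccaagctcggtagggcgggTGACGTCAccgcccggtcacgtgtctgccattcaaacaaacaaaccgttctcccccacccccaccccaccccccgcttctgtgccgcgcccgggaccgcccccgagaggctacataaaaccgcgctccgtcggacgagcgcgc
*Fos* and *Dusp1* hold the motif at 2 places each in these 200 bases and *Junb* at 1.

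Of 9 other AP-1 genes (*Fosl1*, *Fosl2*, *Jund*, *Batf*, *Batf2*, *Batf3*, *Jdp2*, *Atf2* and *Atf7*), all were tested and none (0) passed in edgeR with or without the block, in DESeq2, or at an unadjusted p under 0.05. Their median log2 fold change was -0.22. *Fosl2*, a FOS relative, had 68.0 ± 9.03 CPM in control libraries and 62.9 ± 5.37 CPM after NaCl (log2 fold change -0.12, 95% interval -0.44 to 0.20). *Jund*, the JUN gene that is usually expressed without a stimulus, was at 34.6 ± 4.90 and 33.1 ± 8.63 CPM, and 52.6% of its exonic bases overlap *Gm11175* on the opposite strand.

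Of 40 other immediate early genes, 38 were tested, with a median log2 fold change of 0.03. In edgeR 1 of them, the zinc finger factor *Klf2*, was called higher without the block, where 0.478% of all genes tested were. An unadjusted p under 0.05 in either direction was reached by 11, and by 2010 of all 15903 genes tested. With the block 10 (26.3%) were higher, where 4.6% of all genes tested were, and 3 (7.89%) were lower, where 4.3% were. *Klf2* rose from 23.6 ± 4.19 to 46.5 ± 7.90 CPM (log2 fold change 0.98, adjusted p = 0.048 in edgeR), a call that 5 of the 6 fits leaving out 1 library lost, all but the one without NaCl replicate 1, with adjusted p-values up to 0.33. *Zfp36*, which encodes the protein TTP that promotes decay of short-lived mRNAs such as those of immediate early genes, had 134 ± 27.9 CPM in control libraries and 249 ± 38.8 CPM after NaCl, with a log2 fold change of 0.89 (adjusted p = 0.0613 in edgeR, 0.000105 with the block and 0.000856 in DESeq2). The other genes called higher with the block included *Ptgs2*, the inducible cyclooxygenase (from 2.33 ± 0.770 to 7.74 ± 5.57 CPM), *Gadd45g* (from 32.7 ± 14.5 to 87.1 ± 55.3 CPM), the growth inhibitor *Btg1* (from 148 ± 31.3 to 244 ± 58.9 CPM) and *Ier5* (from 96.0 ± 9.73 to 131 ± 28.9 CPM). Called lower with the block were, among others, *Klf6* (from 355 ± 50.7 to 247 ± 66.3 CPM) and *Nfil3* (from 10.1 ± 0.311 to 6.70 ± 1.66 CPM). Of these blocked calls, that of *Klf6* was lost without mouse 1 (adjusted p = 0.0925), that of *Nfil3* without mouse 1 or 2 (up to 0.252) and that of *Ier5* without mouse 1 or 3 (up to 0.346). Of these 38 genes 16 (42.1%) differed between mice in the blocked fit, where 8.89% of all genes tested did.

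Genes upstream and downstream of the signal were also counted. Of 16 feedback inhibitors of MAP kinases and EGR factors (DUSP, NAB, Sprouty and SPRED genes), 15 were tested and none (0) passed in edgeR with or without the block or in DESeq2. An unadjusted p under 0.05 in edgeR was reached by 2 of them, each upwards, where 6.63% of all genes tested reached it upwards. Of 24 upstream kinases and transcription factors, all were tested and 1 (4.17%) was called higher with the block, *Rps6ka5*, where 4.6% of all genes tested were. It encodes MSK1, a kinase of CREB and histone H3, and had from 18.1 to 20.1 CPM in control libraries and from 30.4 to 37.4 CPM after NaCl (log2 fold change 0.76, adjusted p = 0.06 in edgeR and 0.000552 with the block). *Srf* was at 46.7 ± 2.02 and 47.2 ± 8.99 CPM, with a 95% interval of the log2 fold change from -0.33 to 0.37. Of 11 rapid NF-kB response genes, 2 (18.2%) were called higher with the block, where 4.6% of all genes tested were. These were *Nfkbiz* (from 11.3 ± 4.48 to 23.2 ± 1.98 CPM, adjusted p = 9.7e-05) and *Tnf* (from 10.7 ± 2.54 to 19.1 ± 9.05 CPM, adjusted p = 0.0028, but 0.0769 without mouse 3). Without the block edgeR called 0 of the 11, with 2 at an unadjusted p under 0.05 in either direction, and DESeq2 called 1 higher. Of all 15903 genes tested, 2010 had such an unadjusted p in edgeR, and DESeq2 called 1.54% higher.

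**Figure D5:**
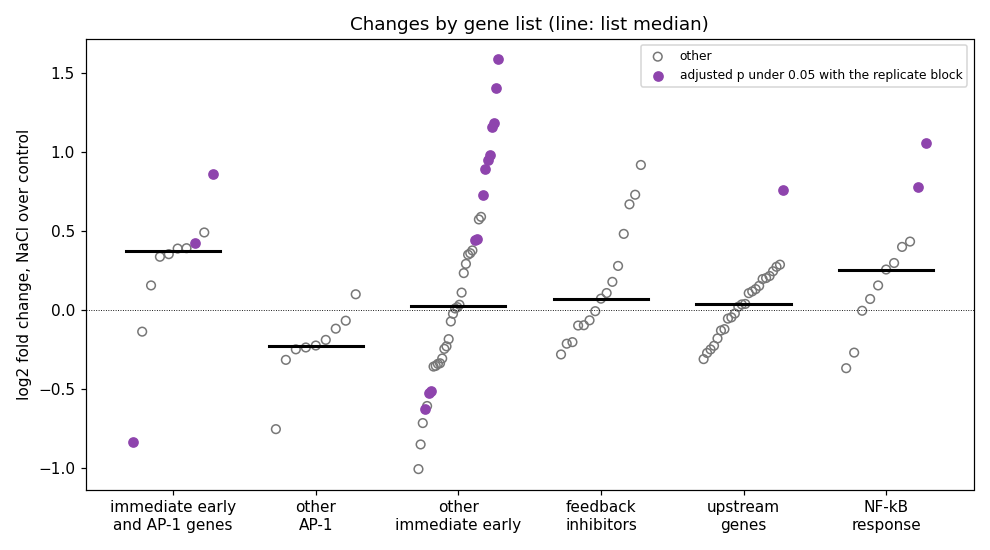
Log2 fold change of NaCl over control (y axis, fit without the mouse) of each tested gene in 6 lists (x axis), with the list median as a line and genes past the adjusted p of 0.05 with the replicate block filled. The filled genes lay on both sides of 0 among the 10 genes and the other immediate early genes, and there were none among the other AP-1 genes and the feedback inhibitors.

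Likeness of profiles was measured as the root mean square distance between log2 CPM values over the 6 libraries, each gene centred on its own mean. Among the 10 genes *Junb* and *Egr2* were nearest to each other, at 0.13, followed by *Jun* and *Ier2* at 0.16, and *Egr1* and *Fos* lay 1.10 apart. Among 9915 other genes with a mean of at least 50 counts, the 5 nearest to the mean profile of the 10 were *Lsm3*, *Nf1*, *Zc3h12a*, *Ccdc84* and *Zswim1*, at distances from 0.07 to 0.08. The mean profile averages genes that went opposite ways.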

How the data were processed

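Single-end reads of 75 bp were trimmed (fastp 0.20.0) and aligned (STAR 2.7.10b) by the authors, who deposited raw counts of reads per gene, counted without strand. They also deposited a normalized signal, the same counts divided by 1 DESeq2 size factor per library, which was used here for symbols and chromosomes and differed from such a quotient by a relative 5.6e-15 at most. The methods name mm10 with GENCODE vM32, an annotation of a different build, and genes are placed by chromosome only. Genes whose counts summed to 10 or more, the authors' filter, were tested with edgeR 4.0.16 (glmQLFit, glmQLFTest, TMM, Benjamini-Hochberg over 15903 genes). Standard errors and 95% intervals were derived from its F statistics, and within-mouse ratios from log2 CPM with a prior count of 2. Poisson intervals cover counting error only.

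The mouse number in the labels pairs the libraries: across genes, the deviations of same-mouse libraries from the means of their groups correlated at 0.43, 0.15 and 0.22, and those of other pairs between -0.35 and 0.12. A second fit, with a replicate block for the mouse, is therefore given beside the first. Exon lengths and overlaps came from GENCODE M21 by gene identifier, and 12 AP-1 genes were used for shares.

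The 10 genes, the lists and the tests were chosen with earlier results of these data known. The text names all 10, list genes past the threshold in either fit (at most 8 a list by lowest p), *Jund*, *Fosl2*, *Srf* and the 5 nearest profiles. In simulated data, where mice differed (SD 0.25, log2), 66 of 112 genes changed by 1 on that scale were called without the block and 111 with it, among 15561 genes, with 0 and 11 false calls. With no difference between mice both fits called 111, with 10 and 13 false calls among 15547 genes. False calls are those of the whole fit, and each fit also called all 88 genes changed by 2. How the fits do where the NaCl effect differs between mice was not tested. In the real libraries that of *Fos* was 0.17, 1.58 and 1.14 (log2) in mice 1, 2 and 3. The alternatives were DESeq2 1.42.0, limma-voom (limma 3.58.1), other scalings and filters, thinning to 4088065 counts, and leaving out libraries or mice. R 4.3.3 and Python 3.11.15 (scipy 1.17.1) were used.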

Additional observations from a re-analysis of the deposited data

How the results depend on the processing

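Without the block 0 of the 10 genes were higher and 0 lower in edgeR. Against this, DESeq2 gave 0 and 1, a replicate block for the mouse 2 and 1, the block in DESeq2 1 and 1, a minimum total count of 1 gave 1 (*Fos*) and 1 (*Egr1*), and the block after thinning 2 and 1. Each of these fits called *Egr1* lower. Median-ratio factors, total count scaling, filterByExpr, limma-voom and thinning gave 0 and 0, as did the 6 fits that each left out 1 library. The blocked fits that left out 1 mouse gave from 2 to 3 higher (*Fos* in all 3, with *Dusp1* without mouse 1, *Junb* without mouse 2, and *Jun* and *Dusp1* without mouse 3) and 1 lower. The direction turned in 4 cases, none of them past the threshold in either setting: *Ier3* to -0.16 without NaCl replicate 1, *Fosb* to -0.16 without NaCl replicate 2, and, with the block but without mouse 2, *Fosb* to -0.013 and *Ier2* to -0.060. In fits leaving out 1 library, the log2 fold change of *Ier3* reached at most 1.02 (without control replicate 1) and that of *Fosb* at most 0.90 (without control replicate 3). The share of *Fosl2* in the AP-1 transcripts differed by -1.44 points when not divided by length, against -0.35 when divided. Its exons span 9680 bases, so its mean control share was 6.94% without the division and 1.73% with it. For each of the other differences the cause was not tested. Of all genes, 76 were higher and 28 lower in edgeR, against 732 and 684 with the block and 452 and 354 with the block in DESeq2. DESeq2 without the block gave 245 and 155, a minimum count of 1 gave 362 and 300, and thinning 29 and 10. Leaving out 1 library gave from 8 to 123 and from 0 to 46. The blocked fits that left out 1 mouse gave from 469 to 758 and from 417 to 661, and the block after thinning 357 and 223. The genes tested were 15903, but 24752 at a minimum count of 1, 13932 after thinning and 12057 with filterByExpr. They were from 15075 to 15755 without 1 library and from 14827 to 14949 without 1 mouse. The 38 other immediate early genes had 1 higher, against 10 with the block, 7 with the block in DESeq2, 4 in DESeq2, 6 at a minimum count of 1 and 0 after thinning. At the depth of NaCl replicate 3 (4088065 counts) *Fosb*, *Ier3* and *Egr1* had 26, 39 and 40 counts.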
